A study of Culter alburnus with 9 samples.

Results

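The genes described here encode mitochondrial ribosomal proteins (MRP genes) of Culter alburnus, a freshwater fish whose intermuscular bones form in the myosepta of the trunk muscle. They are the rows of the gene table whose best Swiss-Prot hit carries a gene name of MRPL or MRPS followed by a digit, whatever the case of the letters. The rule took 77 of the 29791 loci in the table, and each of the 77 symbols was held by 1 locus. RNA came from the muscle and myoseptal region of 9 F1 fish aged 2 months, with 1 fish per library and no pooling. The 3 genotypes were wild type (Ctrl), runx2b heterozygous mutant (He) and runx2b homozygous mutant (Ho), with 3 fish of each, and no external treatment was given. All fish were offspring of CRISPR/Cas9-edited F0 founders, selected for sharing 1 mutation type and crossed. The dissected tissue was enriched for myoseptum but still held much muscle, and fish were picked for representative bone phenotypes and comparable size.

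The mitochondrial ribosome translates the few proteins encoded in mitochondrial DNA, all of them core subunits of the oxidative phosphorylation (OXPHOS) complexes. Its RNAs come from mitochondrial DNA, whereas every one of its proteins is encoded in the nucleus, made on cytosolic ribosomes and imported. Some of these proteins descend from bacterial ribosomal proteins and others were added in mitochondria. Muscle depends on this machinery for its respiratory chain, and slow fibres hold more mitochondria than fast ones. runx2b encodes a transcription factor of bone-forming cells. The comparisons asked whether the transcripts of this machinery differ between fish with 0, 1 or 2 mutant copies of it.

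Library totals ran from 15869116 to 21009469 estimated counts, and the TMM factors that scale for library composition ran from 0.708 in He 1 to 1.40 in Ctrl 2. Fast muscle markers summed to between 153000 and 206800 TPM, a level per transcript length, in every fish. The tendon and myoseptum markers summed to between 47.9 and 220.6 TPM, with the tendon gene TNMD at 37.3 TPM on average. Of 2 loci with a RUNX2 hit, only ABG768_014534 had enough counts to be tested, at 1.21 CPM (counts scaled to the TMM-corrected library size) or less in each fish and 0 in Ctrl 3 and He 1. The table does not say which locus is runx2b, so the targeted gene gave no check of the labels.

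All 77 MRP genes passed the filter on low counts, as did 14755 loci in all. The lowest estimated count of a member in any library was 11, the median was 117 and the highest was 651, and no member was at 0. At the median count the counting error alone was 0.13 on the log2 scale. Of the members, 50 belong to the large (39S) subunit, among them MRPS30 and MRPS18A in spite of their names, and 26 to the small (28S) subunit. MRPS36, known in mammals as an adaptor of the 2-oxoglutarate dehydrogenase complex, is no longer counted as a ribosomal protein. It was kept because the rule takes it. By the systematic names of the subunits, 46 members have a bacterial counterpart and 30 are particular to mitochondria. Against a list of 82 subunit names of the vertebrate mitochondrial ribosome, 76 were found by the rule. Another 5 stand in the table under names of another kind, namely DAP3, PTCD3, CHCHD1, AURKAIP1 and GADD45GIP1. No locus matched MRPL50 by that symbol.

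In the genome assembly used by the authors, 76 members had coordinates, spread over 21 chromosomes with between 1 and 6 on each. MRPL36 lay on a locus assembled from reads, without coordinates. The closest pair was MRPS11 (ABG768_024748, chromosome 7, 6371369 to 6382701) and MRPL46 (ABG768_024749, chromosome 7, 6382961 to 6388341), with 259 bases and no gene between them. Next came MRPL9 and MRPL24 on chromosome 19 with 1 gene between them, MRPL16 and MRPL39 on chromosome 1 with 3, and MRPL45 and MRPL4 on chromosome 11 with 6.

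MRP transcripts were similar to one another in abundance and stood above most tested loci. Averaged over the 9 fish, the level per length of a member had a median of 10.9 TPM and ran from 2.87 to 41.6 TPM. All tested loci had a median of 2.07 TPM and an upper quartile of 5.56 TPM. The middle of the member list was narrow. Its upper quartile (14.8 TPM) was 1.86 times its lower quartile (7.96 TPM), against 5.88 times over all tested loci. The large and small subunits were at the same level, with medians of 11.0 and 10.6 TPM, and members with and without a bacterial counterpart had medians of 11.3 and 10.1 TPM. For comparison, the median was 151 TPM over 94 OXPHOS subunits and 1994 TPM over 87 loci of cytosolic ribosomal proteins. The upper quartile was 3.93 times the lower over the OXPHOS subunits. Over the cytosolic ribosomal proteins it was 1.85 times, as narrow as over the members. Together the 77 members made up between 0.0698% and 0.143% of the TPM of a fish.

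**Figure D1:**
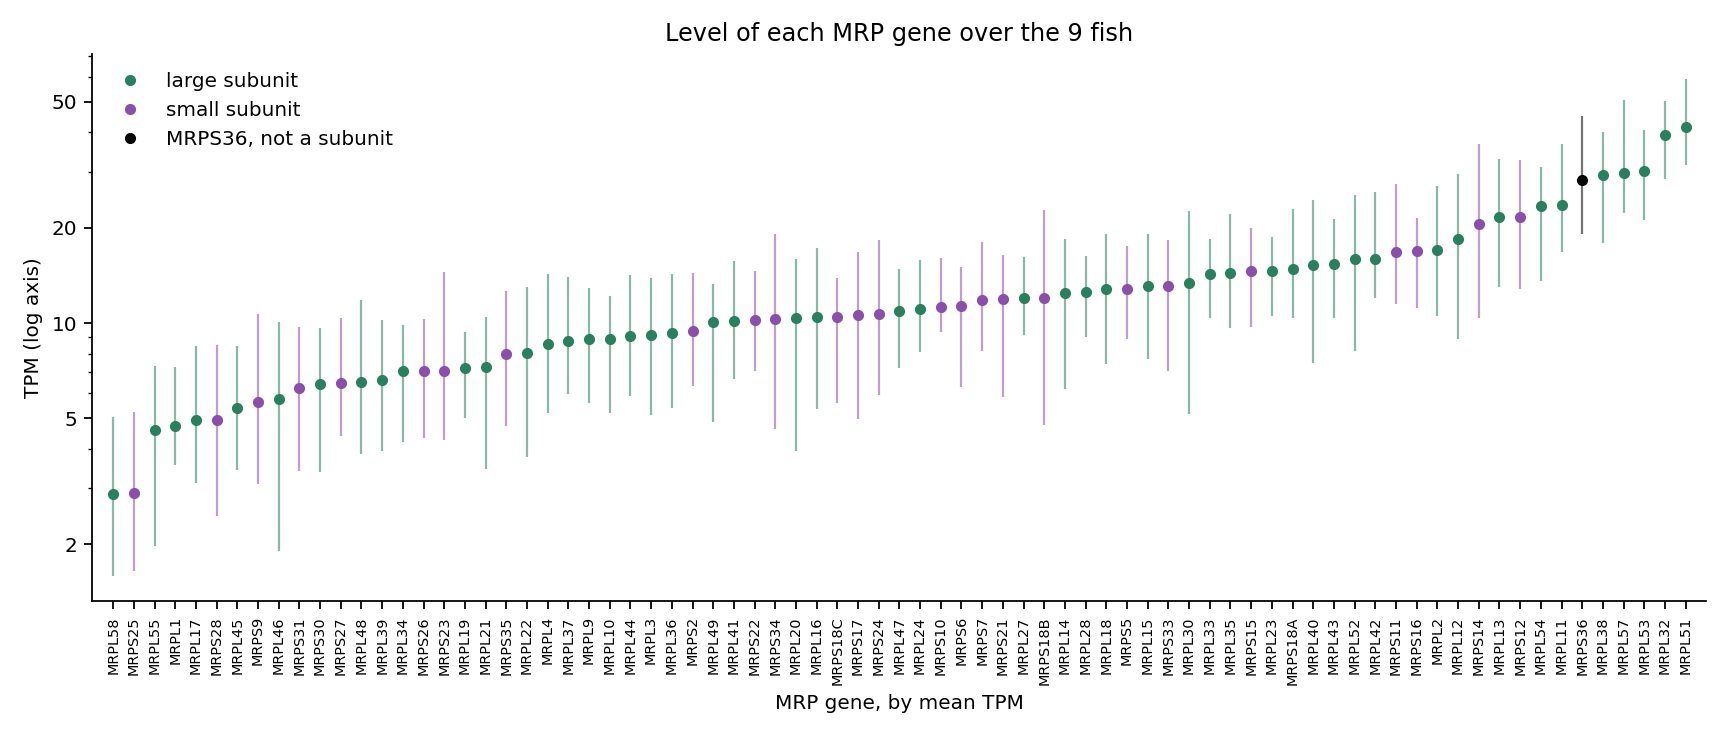
Each point is the mean TPM of 1 MRP gene over the 9 fish on a log axis, and its line runs from the lowest to the highest fish. The genes are ordered by mean and coloured by subunit. Means run from 2.87 TPM (MRPL58) to 41.6 TPM (MRPL51), and large and small subunit genes are mixed along the order.

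The 5 highest members were all of the large subunit. MRPL51 averaged 41.6 TPM (31.6 to 59.0 over the 9 fish), MRPL32 averaged 39.1 TPM (28.5 to 50.3) and MRPL53 averaged 30.2 TPM (21.2 to 40.9). MRPL57 averaged 29.7 TPM (22.2 to 50.7) and MRPL38 averaged 29.3 TPM (17.9 to 40.2). The ranges of these 5 overlapped one another across fish, and their order within each fish was not examined. MRPL32 is the subunit whose cleavage by the m-AAA protease is needed for ribosome assembly in mouse and yeast. MRPL38 is part of the central protuberance, the crown of the large subunit.

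At the other end, MRPL58 averaged 2.87 TPM (1.59 to 5.04) and MRPS25 averaged 2.90 TPM (1.65 to 5.22). MRPL58 is a peptidyl-tRNA hydrolase that became a structural subunit in mitochondria. MRPL55 averaged 4.59 TPM (1.97 to 7.32), MRPL1, of the flexible stalk beside the tRNA exit site, 4.74 TPM (3.55 to 7.27), and MRPL17 4.93 TPM (3.13 to 8.48). These 5 ranges overlapped as well. None of them overlapped that of MRPL51 or MRPL32, so the ends of the order were separated in every fish. TPM of short transcripts depends strongly on the length assigned to them: the transcript of MRPL53 has 412 bases and that of MRPS25 has 2529.

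No MRP gene passed the test between any 2 genotypes. At a Benjamini-Hochberg adjusted p under 0.05, 0 of 77 members were called by edgeR in each of the 3 comparisons (background 0% of loci in each). DESeq2 also called 0 of 77 in each, against a background of 1.47% of loci between He and Ctrl, 0.379% between Ho and Ctrl and 0.0844% between Ho and He. The smallest adjusted p of a member from edgeR was 0.442, 0.781 and 0.737 in these comparisons, in the same order, and from DESeq2 it was 0.428, 0.854 and 0.787. The 3 comparisons share fish in pairs, so they are not independent of one another. In bulk tissue, fewer cells rich in mitochondria and less MRP RNA per cell cannot be told apart.

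In He against Ctrl, 50 of the 77 members had a positive log2 fold change, with a median of 0.11 against -0.01 over all tested loci. Single members ran from -0.34 to 0.76, and 70 of them lay within 0.5 of zero, with a median standard error of 0.28. By edgeR, 2 members reached an unadjusted p under 0.05 with a higher level (background 4.13% of loci) and 0 with a lower level (6.29%). The values of the 3 He fish all lay above those of the 3 Ctrl fish in 6 members (background 6.28%) and all below in 0 members (8.32%). The 6 members were 7.79% of the list, near the background. With library totals alone 12 of 77 members were positive and the median was -0.29, against -0.41 over all tested loci, and from TPM 9 of 77 were positive, with medians of -0.27 and -0.28. The TPM values here used a pseudocount of 1. With a pseudocount of 0.1 the medians were -0.31 for the members and -0.43 for all tested loci. With TMM and library totals, a positive value here is thus one relative to the other loci. From TPM the median of the members less that of all loci was 0.001 at a pseudocount of 1 and 0.12 at 0.1. Without the filter on low counts it was -0.114 at a pseudocount of 1, so from TPM its sign was not fixed. The TMM-scaled median of the members also rested in part on single fish, since it was 0.02 without Ctrl 2 and 0.30 without Ctrl 1.

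The positive values in He were mostly those of the large subunit. There 37 of 50 members were positive with a median of 0.16, against 12 of 26 and a median of -0.02 in the small subunit. Both medians were negative with library totals (-0.23 and -0.36) and from TPM (-0.26 and -0.38). This difference between the subunits was not tested. MRPL10, at the base of the stalk that recruits translation factors, had 4.45, 3.09 and 4.23 CPM in Ctrl 1 to 3 and 4.26, 6.61 and 8.15 CPM in He 1 to 3. He 1 lay inside the Ctrl range. The log2 fold change was 0.70 ± 0.29 (SE, n = 3 fish per genotype), with an edgeR adjusted p of 0.442. The other stalk members gave log2 fold changes of 0.11 ± 0.23 for MRPL11 and -0.12 ± 0.27 for MRPL12, whose protein also binds mitochondrial RNA polymerase in mammals.

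Among the 6 members without overlap, MRPS26 had the largest difference. It stood at 3.91, 1.93 and 4.31 CPM in Ctrl 1 to 3, 6.11, 4.63 and 6.43 CPM in He 1 to 3, and 6.97, 4.14 and 4.37 CPM in Ho 1 to 3. Ctrl 2 was the lowest fish, and the gap between He and Ctrl was small beside the spread within each. Its log2 fold change was 0.76 ± 0.34 in He against Ctrl and 0.62 ± 0.34 in Ho against Ctrl, with edgeR adjusted p of 0.474 and 0.808.

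MRPL49 had 4.67, 3.72 and 2.60 CPM in Ctrl and 5.26, 5.82 and 5.22 CPM in He, a log2 fold change of 0.56 ± 0.29. In Ho it had 6.22, 3.16 and 4.77 CPM, a range that overlapped both of the other genotypes. MRPL33, among the smallest proteins of the large subunit, had 6.53, 4.89 and 6.76 CPM in Ctrl and 7.11, 7.14 and 9.87 CPM in He (0.41 ± 0.22). The highest Ctrl and the lowest He fish were close together. In Ho it was at 6.65, 5.57 and 5.24 CPM, within the Ctrl range and below each He fish.

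MRPL43 was the most even of these in He, at 10.2, 10.3 and 10.4 CPM against 9.65, 7.35 and 7.13 CPM in Ctrl and 9.87, 7.58 and 9.33 CPM in Ho. Its log2 fold change in He against Ctrl was 0.36 ± 0.19. MRPS16, needed in human cells to assemble the small subunit, had 13.7, 11.8 and 12.5 CPM in Ctrl and 18.6, 15.0 and 15.0 CPM in He (0.35 ± 0.25). In Ho it ranged from 9.13 to 17.4 CPM. The direction of MRPL43 and MRPS16 in He differed with the scaling: it was positive with TMM, RLE and DESeq2 size factors, but with library totals alone the values were -0.07 and -0.077, and limma on log2(TPM + 1) gave -0.085 and -0.104. That of MRPL33 turned to -0.055 with limma on log2(TPM + 1). The remaining member, MRPL27, had a log2 fold change of 0.27 ± 0.22, and all 6 had edgeR adjusted p of 0.47 or more.

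**Figure D2:**
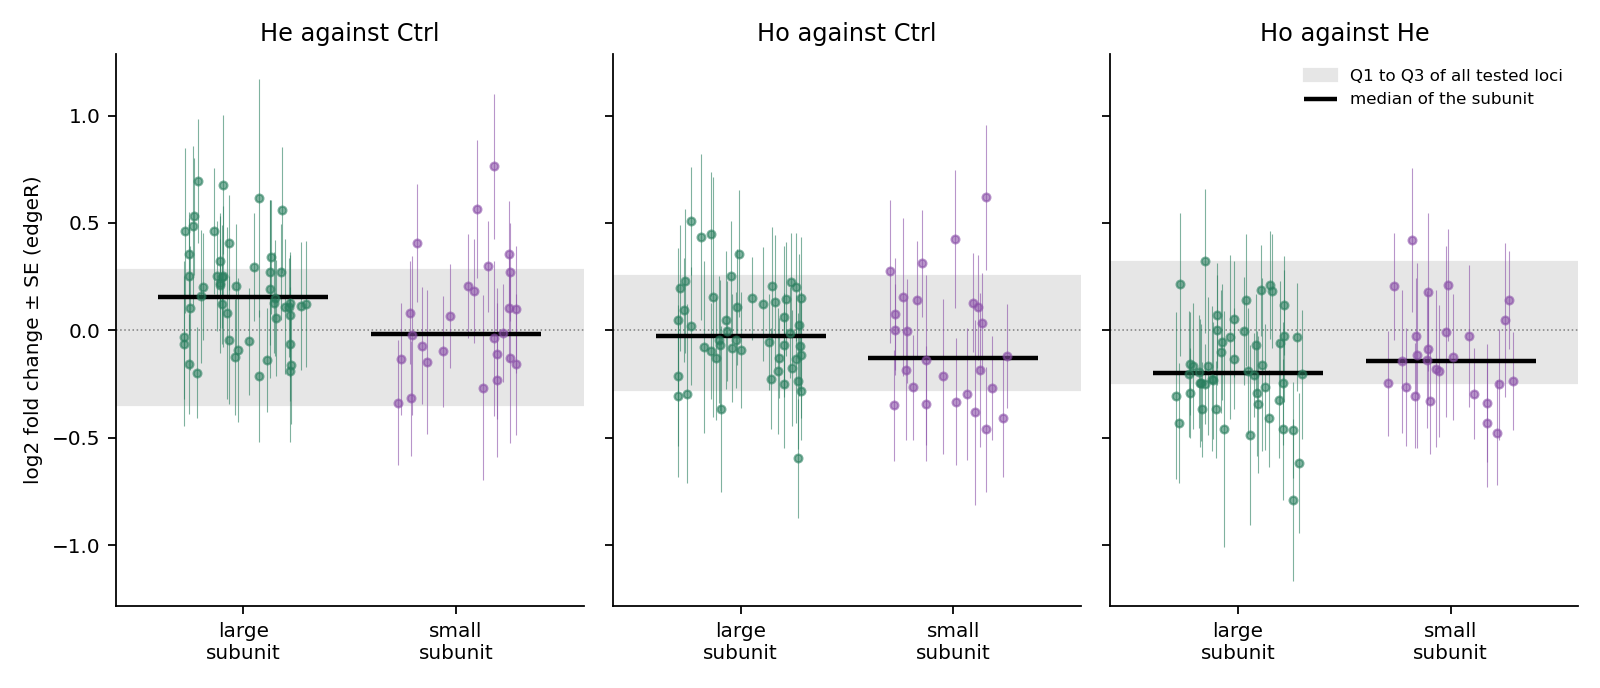
Each point is the edgeR log2 fold change of 1 MRP gene with its standard error, split into the 50 large and 26 small subunit genes, for the 3 comparisons. Black bars are medians and the grey band runs from the lower to the upper quartile of all tested loci. Most points lie within 0.5 of zero, with medians of 0.16 and -0.02 in He against Ctrl, -0.03 and -0.13 in Ho against Ctrl, and -0.20 and -0.14 in Ho against He.

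In Ho against Ctrl the members showed no common direction, with 35 of 77 above zero and a median of -0.04 (all loci -0.01). Single values ran from -0.60 to 0.62. No member reached an unadjusted p under 0.05 by edgeR in the higher (background 3.59%) or lower direction (2.92%). None had its 3 Ho fish all above (5.92%) or all below (5.33%) the 3 Ctrl fish. The lowest value was that of MRPL36, with 3.60, 3.09 and 3.86 CPM in Ctrl and 3.11, 1.90 and 1.95 CPM in Ho (-0.60 ± 0.28). Ho 1 overlapped the lowest Ctrl fish by a narrow margin. With library totals 12 of 77 were above zero (median -0.26, all loci -0.24) and from TPM 6 of 77 (median -0.29, all loci -0.20). The sign of the TMM-scaled median turned with 1 fish: it was 0.10 without Ctrl 1, 0.11 without Ho 2 and -0.19 without Ctrl 2.

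Between Ho and He, 61 of 77 members were negative, with a median of -0.18 (all loci 0.01) and values from -0.79 to 0.42. Both subunits took part, with 40 of 50 large and 20 of 26 small subunit members below zero. By edgeR, 0 members reached an unadjusted p under 0.05 in the higher (background 4%) or lower direction (2.79%). The 3 Ho fish lay below the 3 He fish in 9 members (6.24%, against 11.7% of the list) and above in 0 (6.03%). With library totals 42 of 77 were negative (median -0.03, all loci 0.19) and from TPM 45 of 77 (median -0.04, all loci 0.10), so that the members stood below the other loci on all 3 scales. The shift rested on 1 fish. Without Ho 2 the median was 0.02 and 43 of 77 members were above zero, and without Ho 1 it was -0.37.

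MRPL55 had the largest difference among the 9 members without overlap, with 2.27, 2.12 and 1.97 CPM in He and 1.61, 0.98 and 1.07 CPM in Ho, a log2 fold change of -0.79 ± 0.38. The Ctrl fish, at 2.00, 1.66 and 0.82 CPM, covered nearly the whole span of both mutants. At these low levels the counting error of MRPL55 was larger than that at the median count. MRPL52 had 1.63, 2.51 and 2.23 CPM in He and 1.13, 1.44 and 1.61 CPM in Ho (-0.62 ± 0.33), so that He 1 and Ho 3 almost touched. MRPS12, the protein beside the decoding centre, had 12.9, 13.0 and 13.2 CPM in He and 10.5, 6.55 and 11.1 CPM in Ho (-0.48 ± 0.24). Its Ctrl fish had 13.0, 8.70 and 12.2 CPM and overlapped both.

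MRPL33, given above, differed by -0.46 ± 0.22 between Ho and He. MRPL1 had 3.69, 3.75 and 4.20 CPM in He, 3.22, 2.58 and 2.96 CPM in Ho and 4.09, 2.87 and 3.71 CPM in Ctrl, with a log2 fold change of -0.41 ± 0.23. The remaining members of the 9, chosen for mention after their values were seen, were MRPL23, MRPL43, MRPS10 and MRPS27, at -0.25, -0.21, -0.29 and -0.30. None of the 9 had an edgeR adjusted p under 0.73.

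**Figure D3:**
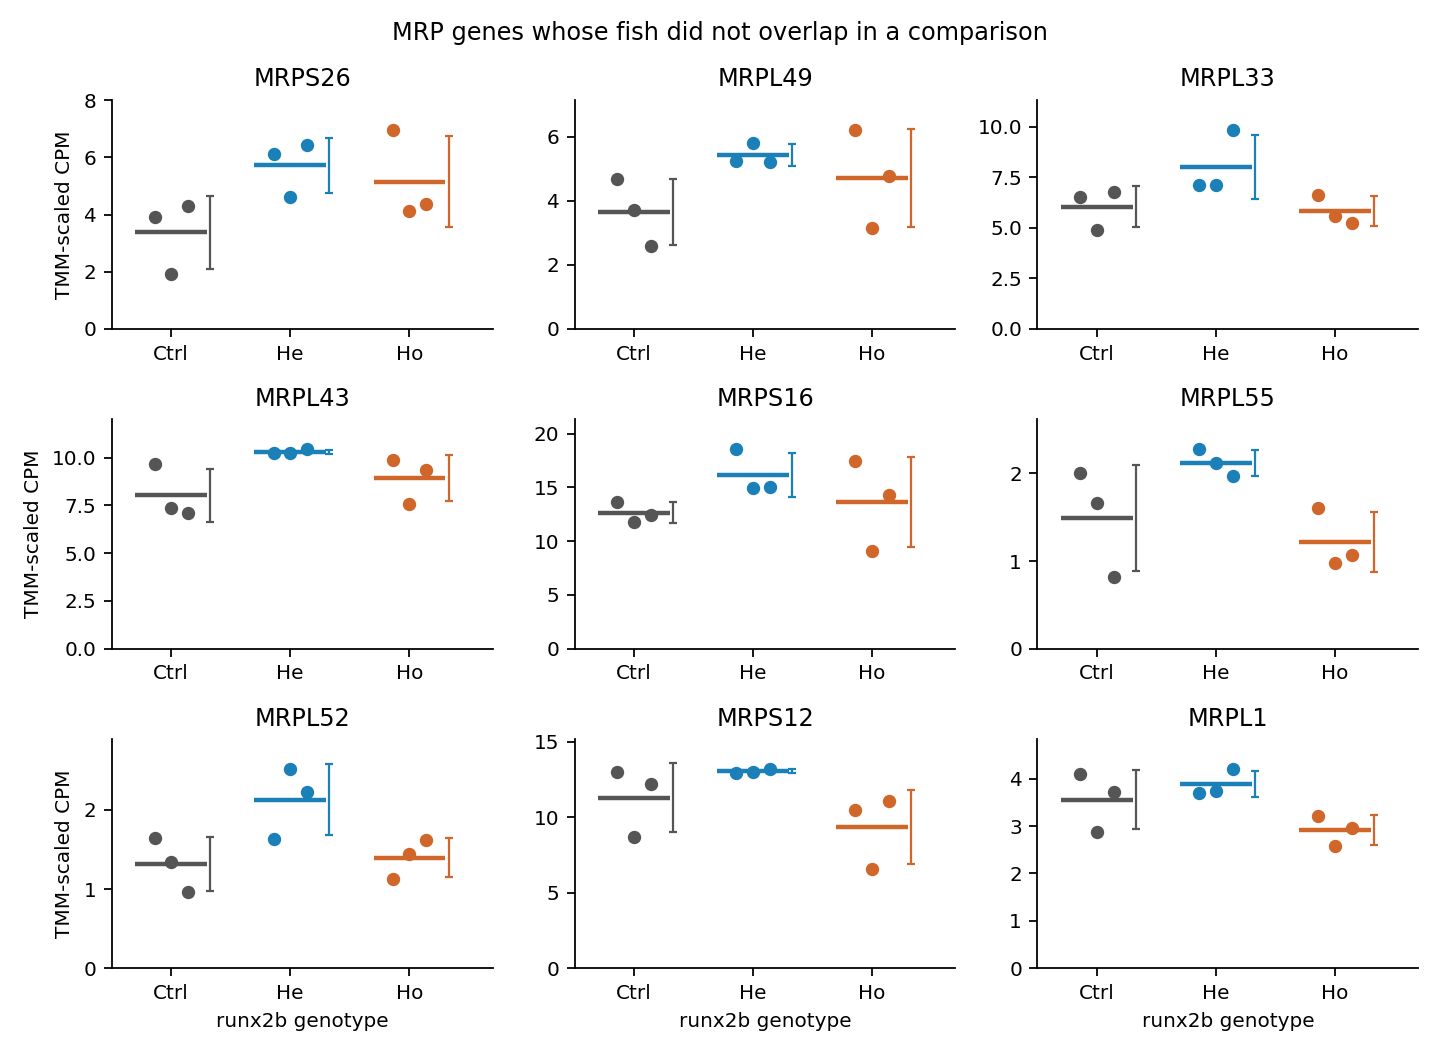
TMM-scaled CPM of each fish for 9 MRP genes named for groups that did not overlap, 5 in He against Ctrl (MRPS26, MRPL49, MRPL33, MRPL43, MRPS16) and 5 in Ho against He (MRPL55, MRPL52, MRPS12, MRPL1 and again MRPL33). Horizontal bars are genotype means and vertical bars 1 SD on either side, with 3 fish per genotype. In each panel the He fish stand apart from at least 1 of the other genotypes, in MRPL52 by a margin as narrow as that between He 1 and Ho 3 (1.63 and 1.61 CPM).

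Grouped by their place on the ribosome, the members gave small differences of either sign. At the rim of the peptide exit tunnel, where the growing chain meets the inner membrane, MRPL45, which tethers the human ribosome to that membrane, had 5.02, 3.23 and 3.94 CPM in Ctrl, 3.77, 4.54 and 5.22 CPM in He and 4.72, 2.81 and 3.90 CPM in Ho. The ranges of the 3 genotypes overlapped, and Ho 2 was the lowest fish. Its log2 fold changes were 0.15 ± 0.27 in He and -0.09 ± 0.27 in Ho relative to Ctrl. Around the same exit, MRPL22 gave -0.19 and 0.03, MRPL23 gave 0.12 and -0.13, MRPL24 gave 0.32 and -0.04, and MRPL47 gave 0.20 in both.

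In the central protuberance, MRPL38, MRPL40, MRPL46 and MRPL48 had log2 fold changes of -0.09, -0.04, 0.19 and 0.11 in He and of 0.23, -0.25, -0.29 and -0.23 in Ho relative to Ctrl, with standard errors from 0.30 to 0.42. MRPL38 followed the other members only in part, with 43.4 CPM in Ho 3 and 36.7 CPM in He 1 as its highest fish. It was still lowest among the Ho fish in Ho 2, at 21.1 CPM, and among the Ctrl fish in Ctrl 2. In the head of the small subunit, MRPS7, MRPS9, MRPS10 and MRPS14 gave 0.11, -0.32, 0.30 and -0.11 in He and 0.31, -0.34, 0.00 and -0.30 in Ho. MRPS5 and MRPS2, at the messenger RNA path of the small subunit, were alike across fish: both were highest in Ctrl 3 and Ho 3, at 24.3 and 20.8 CPM for MRPS5 and 10.6 and 13.0 CPM for MRPS2. Their log2 fold changes in Ho against Ctrl were 0.16 ± 0.37 and 0.28 ± 0.33. MRPS36, the member that is not a ribosomal protein, ran from 13.0 CPM in Ctrl 2 and 13.6 CPM in Ho 2 to 24.7 CPM in Ho 1, so that its low fish were those of the ribosomal members.

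In TMM-scaled CPM, He was the highest of the 3 genotypes in 46 of 77 members (59.7%, against 34.2% of all tested loci) and Ho was the lowest in 37 (48.1%, against 30.2%). The members shift together within a fish, so these counts are not counts of independent genes and lean on single fish. Without Ctrl 2 the member median in He against Ctrl was 0.02, and without Ho 2 that in Ho against He was 0.02. In summed TPM the order was another one, with Ctrl at 1136 ± 299.8, He at 914 ± 198 and Ho at 911 ± 185 TPM (SD, n = 3 fish each). The fish of the 3 genotypes overlapped, with 1433, 1141 and 833 TPM in Ctrl 1 to 3, 698.5, 1086 and 958 TPM in He 1 to 3, and 1092, 722 and 918 TPM in Ho 1 to 3. This sum and the counts in TMM-scaled CPM differ in scaling and in the weight they give to abundant genes. With equal weight per gene on log2(TPM + 1), 68 of 77 members were lower in He and 71 lower in Ho than in Ctrl. Of 14755 tested loci, 12525 were lower in He and 11445 lower in Ho on this scale. The TPM scale thus placed Ctrl highest in most members without that weight, but most tested loci went the same way. The part of the weight was not tested.

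In Ctrl and Ho, members differed between fish of 1 genotype by more than their medians differed between genotypes, and they did so together. The median deviation of the members had a pooled SD of 0.245 among fish of a genotype, against a largest median log2 fold change of -0.18 between genotypes. In the He fish this median ran only from 0.05 to 0.19. The log2 CPM of each member was set against its own mean over the 9 fish. In Ctrl 2, only 11 of 77 members lay above their own mean, with a median of -0.28, and in Ho 2 only 2 of 77 did, with a median of -0.42. In Ctrl 1 and Ho 1 the same count was 62 and 69, with medians of 0.25 and 0.21. The remaining fish were Ctrl 3 with 42, He 1 with 44, He 2 with 55, He 3 with 62 and Ho 3 with 42 of 77, and medians from 0.02 to 0.19. Over all tested loci the share above the mean stayed between 48.7% and 53.1% in each fish, which TMM scaling largely sets. On a linear scale the median member stood at 74.8% of its own mean in Ho 2, 82.6% in Ctrl 2, 116.0% in Ho 1 and 118.7% in Ctrl 1. With library totals alone the median deviation of all tested loci ran from -0.48 in He 1 to 0.50 in Ctrl 2.

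**Figure D4:**
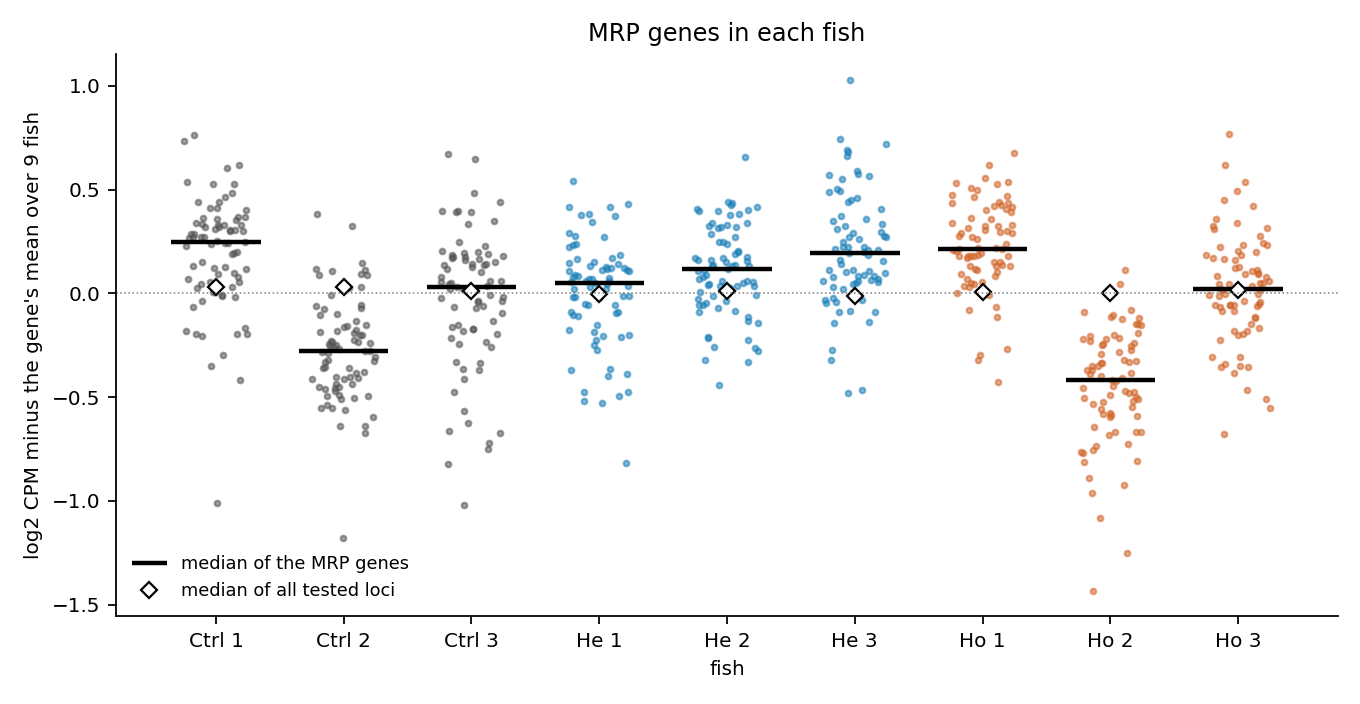
Each point is 1 of the 77 MRP genes in 1 fish, as its log2 CPM minus its own mean over the 9 fish. Black bars are the medians of the MRP genes and diamonds the medians of all tested loci. The cloud lies low in Ctrl 2 (median -0.28) and Ho 2 (-0.42) and high in Ctrl 1 (0.25) and Ho 1 (0.21). TMM scaling itself keeps the diamonds near zero in every fish.

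Ho 2 was the lowest of the 3 Ho fish in 68 of 77 members (88.3%, against 34.9% of all tested loci) and the lowest of all 9 fish in 38 members. It was the highest of the Ho fish in 1 member. The 2 members above their own mean in Ho 2 were MRPL9 and MRPS33, by 0.11 and 0.05 on the log2 scale. MRPL46 was among the lowest there, at 1.78 CPM against 6.76 and 4.70 CPM in Ho 1 and Ho 3. Its neighbour MRPS11 had 8.90 CPM in Ho 2 against 11.6 and 12.9 CPM, a smaller drop.

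Ctrl 2 was the lowest of the Ctrl fish in 57 of 77 members (74.0%, against 30.1% of all tested loci). The exceptions in Ctrl 2 included MRPS25 (0.38 above its own mean), MRPL30 (0.32) and MRPL44 (0.12), a protein with an RNase III fold. He 1 was the lowest of the He fish in 40 members (51.9%, against 34.4%). On the TMM scale the mean log2 CPM over the members had an SD of 0.10 among the He fish, 0.23 among the Ctrl fish and 0.35 among the Ho fish.

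The places of Ctrl 2 and He 1 depended on the scale more than that of Ho 2. With library totals alone, Ctrl 3 was the lowest Ctrl fish in 67 of 77 members, as it was for 76.2% of all tested loci, and Ctrl 2 in 7. He 1 was then the lowest He fish in 69 of 77 members (89.6%, against 61.4% of all tested loci), and in TPM in 69 as well. On the scale of library totals Ho 2 was still the lowest Ho fish in 52 of 77 members (67.5%, against 22.3% of all tested loci), and in TPM in 61 (79.2%, against 28.0%). Relative to the median of all tested loci in the same fish, the members stood at -0.42 in Ho 2 by TMM, -0.42 by library totals and -0.37 by TPM. The same values in Ctrl 2 were -0.31, -0.30 and -0.09.

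Much of the spread of the members within a genotype was shared. The SD of log2 CPM among fish of 1 genotype had a median of 0.32 over the members, and 0.21 once the median of the members in each fish was taken off. It fell in 69 of the 77 members. By this SD the most variable member was MRPL58 (0.64), the member of lowest level, with 0.49, 0.76 and 1.78 CPM in Ctrl, 1.14, 1.06 and 2.35 CPM in He and 1.56, 0.98 and 0.74 CPM in Ho. It was high in Ctrl 3 and He 3 and did not follow the other members. At this low level its counting error was larger than the 0.13 given for the median count. The part of that error in its SD was not tested.

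MRPS18B came next (SD 0.60), with 15.4, 10.7 and 11.0 CPM in Ctrl, 5.61, 10.2 and 15.0 CPM in He and 14.2, 4.65 and 9.60 CPM in Ho. Its relatives MRPS18A and MRPS18C, which descend from the same bacterial protein, ran only from 7.53 to 12.5 CPM and from 3.62 to 5.98 CPM. By their systematic names, MRPS18C was counted above as having a bacterial counterpart, but MRPS18A and MRPS18B as particular to mitochondria. MRPS34, of the foot of the small subunit, had an SD of 0.55 and ranged from 4.98 CPM in Ctrl 3 to 13.6 CPM in Ctrl 1. The steadiest members were MRPL23 (0.14), MRPL43 (0.15) and MRPL1 (0.17). MRPL23, beside the exit of the peptide tunnel, stayed between 9.59 CPM in Ho 2 and 13.9 CPM in Ctrl 3. Across members the highest fish exceeded the lowest by 2.03 times at the median, by 1.45 times at least and by 4.82 times at most.

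On the TMM scale the 5 subunits with names of another kind behaved much like the members in Ctrl 2 and Ho 2. In each of these fish 0 of 5 lay above their own mean. None was called in any comparison, and the smallest edgeR adjusted p in He against Ctrl was that of CHCHD1 (0.55 ± 0.31, adjusted p = 0.566). DAP3, a GTP-binding subunit, gave 0.34 ± 0.27 there. In Ho against Ctrl the value of GADD45GIP1 was 0.38 ± 0.19, with an edgeR adjusted p of 0.786.

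Genes that build the mitochondrial ribosome or work with it were examined from lists by role, none of which held a locus called by edgeR or DESeq2. At most 2 loci of a list, the cytosolic ribosomal proteins aside, had an unadjusted edgeR p under 0.05 in any comparison. These 2 were among 16 loci of mitochondrial DNA maintenance and transcription, and were lower in He than in Ctrl (background 6.29% of loci). In that list the He fish all lay below the Ctrl fish in 5 of 16 loci (8.32%) and all above in 0 (6.28%). The directions given for these lists are on the TMM scale; with library totals every list but the cytosolic ribosomal proteins had a negative median in He and in Ho relative to Ctrl, as all tested loci did. Of 29 tested assembly factors, 11 were higher in He than in Ctrl (median -0.15) and 7 were higher in Ho than in Ctrl (median -0.19). The one with the smallest p in He was Afg3l2, a subunit of the m-AAA protease, at -0.77 ± 0.26 (edgeR adjusted p = 0.383). In Ho it was YBEY, an RNA-processing factor, at -1.01 ± 0.42 (edgeR adjusted p = 0.747).

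The 18 translation factors had medians of -0.06 in He and -0.07 in Ho relative to Ctrl. SLIRP, which stabilises mitochondrial messenger RNAs, gave 0.61 ± 0.24 in He (edgeR adjusted p = 0.422). MTFMT, which formylates the initiator methionyl-tRNA, gave -0.70 ± 0.26 in Ho (edgeR adjusted p = 0.732). For 17 loci of mitochondrial tRNA synthetases and related enzymes the medians were -0.06 and -0.01. For 16 loci of mitochondrial DNA maintenance and transcription they were -0.15 and -0.27, with 13 of 16 lower in Ho than in Ctrl. In Ho against He, TFAM, the main packaging protein of mitochondrial DNA, gave -0.57 ± 0.22 (edgeR adjusted p = 0.730). Of 16 loci of regulators of mitochondrial biogenesis, 13 were lower in He than in Ctrl. ESRRB, a nuclear receptor, had the smallest p at -2.74 ± 0.84 (edgeR adjusted p = 0.359), with a mean level of 0.44 TPM.

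The 94 OXPHOS subunits, which include the nuclear partners of the proteins made by the mitochondrial ribosome, had a median of 0.00 in He and -0.06 in Ho relative to Ctrl, and of -0.04 between Ho and He. Fish by fish on the TMM scale they were low in Ctrl 2 (median deviation -0.29) and Ho 2 (-0.44), as the members were. They were also low in He 2 (-0.35), where the median of the members was 0.12. With TMM, He 2 was the lowest He fish for 81 of 94 OXPHOS loci and for 19 of 77 MRP genes. With library totals and TPM the OXPHOS median deviation was still negative in Ho 2 (-0.30 and -0.40) and He 2 (-0.23 and -0.27). In Ctrl 2 it was 0.19 and 0.26 on those scales, against 0.50 and 0.35 over all tested loci.

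The 87 loci of cytosolic ribosomal proteins took another course. In Ho 2 their median deviation was 0.31, and Ho 2 was the highest Ho fish for 73 of them. All 87 had a positive log2 fold change in He against Ctrl (median 0.41) and 85 of 87 in Ho against Ctrl (median 0.50), without a call. The number of positive values in He was 60 of 87 with library totals and 32 of 87 from TPM (median -0.045), and in Ho 83 of 87 on both scales. By edgeR, 4 of the 87 loci reached an unadjusted p under 0.05 with higher values in He (background 4.13%) and 29 in Ho (3.59%). By DESeq2, 33 did in He and 73 in Ho, in either direction, as did 1596 and 995 of all 14755 tested loci. The smallest edgeR adjusted p in He was that of a locus of RPL7L1 (0.422), and in Ho that of Rpl27a (0.70 ± 0.24, adjusted p = 0.732).

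**Figure D5:**
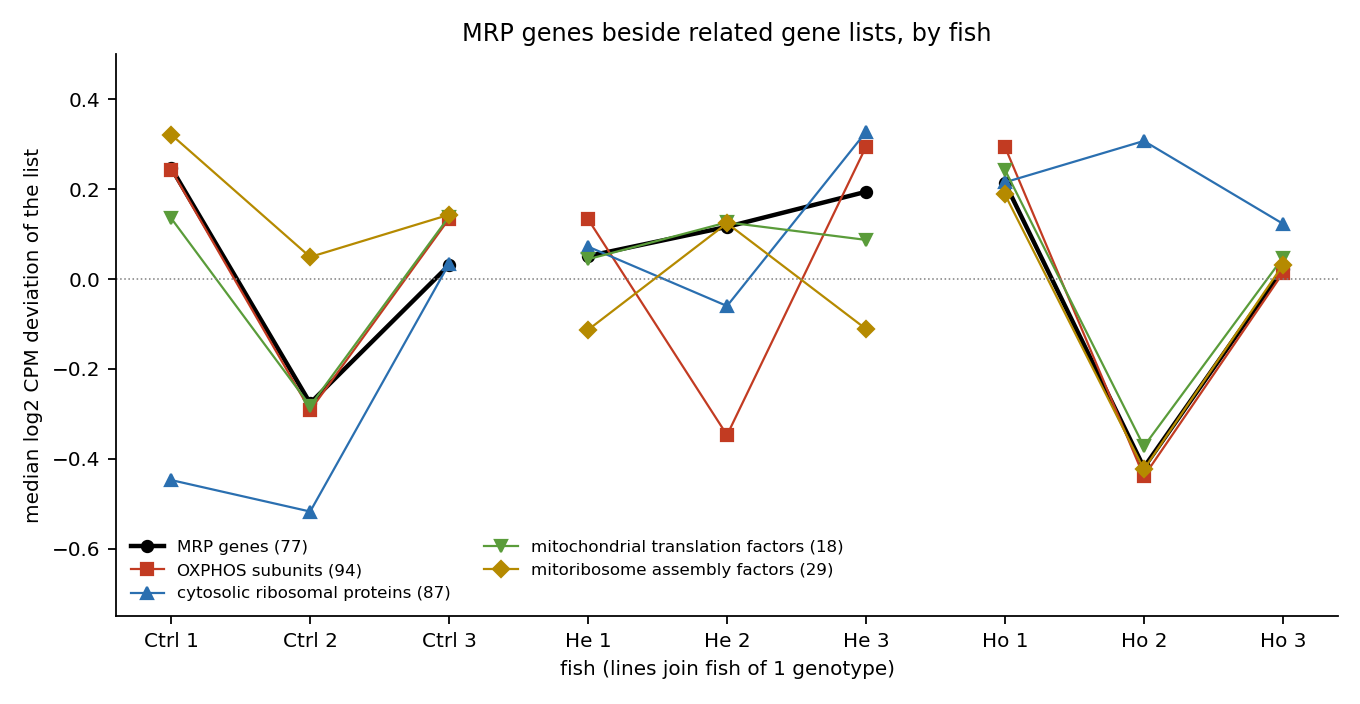
Each line joins the 3 fish of a genotype and gives the median, over a gene list, of log2 CPM minus the mean of each gene over 9 fish. All lists of mitochondrial genes shown are low in Ho 2 (MRP genes -0.42, OXPHOS subunits -0.44), and in He 2 the OXPHOS subunits (-0.35) part from the MRP genes (0.12). Cytosolic ribosomal proteins are high in Ho 2 (0.31).

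Tissue markers differed among the same fish. Slow muscle markers summed to 4276, 3173 and 2417 TPM in Ctrl 1 to 3, 1554, 1492 and 2326 TPM in He 1 to 3, and 2872, 1004 and 2656 TPM in Ho 1 to 3, the lowest being Ho 2. There 2 of 23 slow muscle loci were above their own mean, as against 20 of 23 in Ho 1. Skin epithelium markers summed to 1665, 780 and 151 TPM in Ctrl, 53.3, 175 and 95.7 TPM in He and 226, 529.9 and 185 TPM in Ho. DESeq2 called 6 of 14 skin loci lower in He than in Ctrl, as it did 150 of 14689 tested loci with an adjusted p. By edgeR 0 were called, and the median log2 fold change was -2.74. In Ho 2, 12 of 14 skin loci were above their mean. Red blood cell markers summed to 1641, 1190 and 38.9 TPM in Ctrl, 97.3, 234 and 454 TPM in He, and 227.5, 1258 and 84.1 TPM in Ho. None of these 3 lists summed to 0 in any fish. On the TMM scale the members were high in Ctrl 1, the fish with the most slow muscle, skin and red blood cell RNA. They were also high in He 3 and Ho 1. On that scale they were low in Ctrl 2 and Ho 2. In red blood cell RNA those fish followed Ctrl 1, with Ho 2 above Ctrl 2. In summed TPM, the scale of the markers, the members stood at 1433 in Ctrl 1, 1141 in Ctrl 2 and 722 in Ho 2. Only Ctrl 1 was then above Ctrl 2. In slow muscle RNA Ho 2 was the lowest fish, whereas Ctrl 2 came next after Ctrl 1. The part of these tissues in the levels of the members was not tested.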

How the data were processed

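The authors aligned filtered paired-end reads of poly(A) RNA to the C. alburnus genome. The aligner and counting tool are not given in the sources used here. They deposited an estimated count per locus, not scaled to library size, of which 94.3% were whole (tolerance 1e-09), and which were rounded here. TPM, which the authors scaled so that each library has the same sum, served for levels and for limma. FPKM was not used and the proteome was not analysed here.

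Loci kept by filterByExpr were scaled by TMM and fitted in R 4.3.3 with edgeR 4.0.16 (robust glmQLFit, glmQLFTest) over all 9 libraries, with 1 mean per genotype. P-values were adjusted by Benjamini-Hochberg over all 14755 tested loci, and calls needed an adjusted p under 0.05. CPM is TMM-scaled, with a prior count of 2 before logs were taken. Standard errors are the log2 fold change over the square root of F. DESeq2 1.42.0 and limma 3.58.1 on log2(TPM + 1) were alternatives. The edgeR, DESeq2 and limma steps were tested on simulated data.

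Members, lists and alternatives were chosen with earlier results of these data known, and no p is given for a list. Members were named when called, when their groups did not overlap (up to 5 per comparison and direction, by size of change), for the 5 highest and 5 lowest mean TPM, and for the 3 largest and 3 smallest SDs within a genotype. Loci of other lists were named from the 3 smallest p per comparison. MRPL10, MRPL36, MRPL46 and other members outside this rule, and DAP3, were named after their values were seen. Same-numbered fish of different genotypes did not deviate together (correlations of log2 CPM from -0.26 to 0.26, not all over 0.1), so the fits had no block.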

Additional observations from a re-analysis of the deposited data

How the results depend on the processing

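Each comparison was refitted under 19 alternatives, and 0 members were called in any of them. Among these the share of all loci called is given only for DESeq2, with 1.47% at most, between He and Ctrl. The main edgeR fit called 0% of loci in each comparison, so 0 members does not set the MRP genes apart from other loci. The smallest adjusted p of a member over the 19 alternatives was 0.23 in He against Ctrl, 0.392 in Ho against Ctrl and 0.508 in Ho against He. DESeq2 with 1 library left out at a time, added after the data were seen, called 0 members (smallest adjusted p 0.217). Its share of all loci was not counted. The medians moved with the scaling and with single fish. In He against Ctrl the median of the members was -0.29 with library totals alone, -0.27 with limma on log2(TPM + 1), with or without the filter, and -0.31 with a pseudocount of 0.1. Over all loci it was then -0.41, -0.28, -0.16 without the filter and -0.43. In Ho against Ctrl the median of the members was -0.29 with limma at a pseudocount of 1, with or without the filter, and -0.31 at 0.1. Over all loci it was then -0.196 with the filter, -0.092 without it and -0.287 at 0.1. In He against Ctrl, MRPL43 turned to -0.07 with library totals, -0.085 with limma at a pseudocount of 1 (both filters) and -0.087 at 0.1. MRPS16 turned to -0.077, -0.104 and -0.107 under the same settings, and MRPL33 to -0.055 and -0.06 under the limma settings. These were 11 of 190 values for the 10 named pairs of member and comparison. With a fish left out, the median ran from 0.02 to 0.30 in He against Ctrl, -0.19 to 0.11 in Ho against Ctrl and -0.37 to 0.02 in Ho against He. With the replicate number as a block, the medians were 0.14, -0.04 and -0.23 and 0 members were called. With 3 fish per genotype and a median standard error of 0.28 in He against Ctrl, differences of a single member as small as the medians given here are within its error, and counting error (0.13 at the median count) was less than the spread between fish.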
